A study of Tupaia belangeri chinensis with 36 samples.

Results

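The transcripts described here are noncoding features of the Chinese tree shrew (Tupaia belangeri chinensis) annotation that carry the name of a cadherin or protocadherin gene. A feature was included when it was named as intergenic (LINC, then a gene symbol) or antisense (a gene symbol, then AS) and its symbol was a CDH with a digit, a PCDH, FAT1 to FAT4, a DCHS or a CELSR gene. Of 76871 features counted, 447 met this rule, 345 of them intergenic and 102 antisense, and they carried 43 gene names. Of those names, 37 were symbols of protein-coding genes in the RefSeq table of the assembly TupChi_1.0. The name gives the gene by which the annotation labels a transcript, and neither distance nor overlap was examined.

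The study cut layers of the fetal cortex from stained sections by laser capture microdissection and sequenced polyadenylated RNA from each, to follow the ventricular zone (VZ), inner and outer subventricular zone (ISVZ, OSVZ), intermediate zone (IZ), cortical plate (CP) and marginal zone (MZ) through embryonic days 28, 37 and 42 (E28, E37, E42). At E28 there were 2 libraries of each of the 6 layers. At E37 the IZ had 3 libraries, the MZ 2, the CP taken whole 1, and its inner (CPi) and outer (CPo) part 2 each, with no germinal layer used here. At E42 there were 2 each of the ISVZ, OSVZ, IZ, CPi, CPo and MZ and 1 of the VZ. The labels name no treatment and no genotype, and the stages are different embryos. The second VZ file of E42 held the same counts as the second VZ file of E28 at all 76871 features and was left out, so 35 libraries remained. The labels do not say that libraries came from separate animals, so each p measures the spread between these libraries.

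Cadherins are calcium-dependent adhesion proteins that hold cells together through repeated extracellular domains, and in the cortex they keep radial glia joined at the ventricle, guide migrating neurons and sort neurons into layers. Classical cadherins (type I and type II) bind catenins inside the cell, protocadherins act in self-recognition and in the wiring of neurites, and the giant FAT, DCHS and CELSR proteins set tissue polarity. Noncoding transcripts near such genes need not share their layer pattern, and no function is known for those described here.

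Between 17932690 and 102042743 counts fell on features in a library (median 31756620), and 40 to 120 of the 447 members were detected in a library. The median number detected was 49 at E28, 52 at E37 and 73 at E42, while the median depth was 30900297.5, 25744685 and 41628512 counts. Noncoding features named after genes of other cell classes were summed as a check of the layers, since the coding features carry no symbol here. Features named after neuronal genes (71 features, 6 of 7 symbols) reached 18.6 to 62.6 CPM (the share of a library's counts, scaled by library size) in the neuron-rich layers IZ, CP and MZ and 2.25 to 28.5 in the germinal layers VZ, ISVZ and OSVZ. Features named after genes of the marginal zone, such as RELN (28 features, 5 of 5 symbols), reached 16.8 to 132.8 CPM in the MZ and 2.06 to 6.42 in the germinal layers. Features named after progenitor genes (43 features, 7 of 8 symbols) overlapped between germinal (2.92 to 33.1 CPM) and neuron-rich layers (1.83 to 24.0). Both OSVZ libraries of E28 resembled neuron-rich ones on this check but were kept on the germinal side. Their progenitor sums were 2.92 and 5.28 CPM. VZ and ISVZ libraries of E28 had 13.8 CPM or more, and its neuron-rich libraries 3.18 to 5.33. Neuronal sums of these OSVZ libraries were 20.8 and 28.0 CPM. The VZ and ISVZ libraries reached at most 4.65 and the neuron-rich ones 18.6 to 45.8. At E42 the OSVZ had 11.5 and 21.7 CPM (progenitor) and 20.2 and 28.5 (neuronal). In tissue of mixed cells, fewer cells of a type and less RNA per cell cannot be told apart.

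Most members were scarce. No count was found for 191 of the 447 in any of the 35 libraries, 327 had fewer than 10 counts in all, and 62 passed the filter on low counts (36 intergenic and 26 antisense, under 27 gene names). Only those 62 were tested, at mean levels from 0.0145 to 10.7 CPM. CPM were not divided by transcript length, so levels compare libraries and not members. Protocadherin names held 44.6% of the 59090 member counts, type I cadherin names 27.5% and type II names 22.7%. Names of single genes were uneven. CDH4 labelled 48 members, of which 14 were tested, and they held 27.4% of the counts, while PCDHGB3 labelled 8, of which 7 were tested, with 30.8%. CDH6 with 27 members and CDH9 with 14 had none above the filter. The 5 most abundant members, LINC-CDH4-2, PCDHGB3-AS-2, LINC-CDH11-5, PCDH10-AS-2 and LINC-PCDHGB3-2, took 61.9% of member counts.

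LINC-CDH4-2 was the most abundant, and it is named after CDH4 (R-cadherin), a classical type I cadherin of the developing brain. At E28 it was at 12.3 and 13.2 CPM in the VZ, 8.08 and 6.03 in the ISVZ, 7.48 and 6.43 in the OSVZ, 18.2 and 11.8 in the IZ, 6.07 and 3.57 in the CP and 13.0 and 8.64 in the MZ. At E28 the VZ, the IZ and the first MZ library lay above 11 CPM, and the CP and both subventricular zones were the low layers. At E37 it was at 9.65, 14.7 and 11.7 CPM in the IZ, 3.15 in the CP, 7.27 and 4.84 in the CPi, 8.61 and 6.36 in the CPo and 6.95 and 8.91 in the MZ. At E42 it stood at 27.6 CPM in the VZ, 19.1 and 21.3 in the ISVZ, 11.6 and 16.9 in the OSVZ, 21.4 and 22.6 in the IZ, 2.29 and 4.10 in the CPi, 3.87 and 3.37 in the CPo and 10.5 and 11.9 in the MZ. By group mean the order ran from the VZ of E42 (27.6), the IZ (22.0 ± 0.861, SD, n = 2) and the ISVZ (20.2 ± 1.58, SD, n = 2) of E42 down to the CPo of E42 (3.62 ± 0.350, SD, n = 2), its CPi (3.19 ± 1.28, SD, n = 2) and the CP of E37 (3.15). The first 3 groups did not overlap with their neighbour in that order, and each of the 14 groups from the IZ of E28 downward overlapped with the next.

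**Figure D1:**
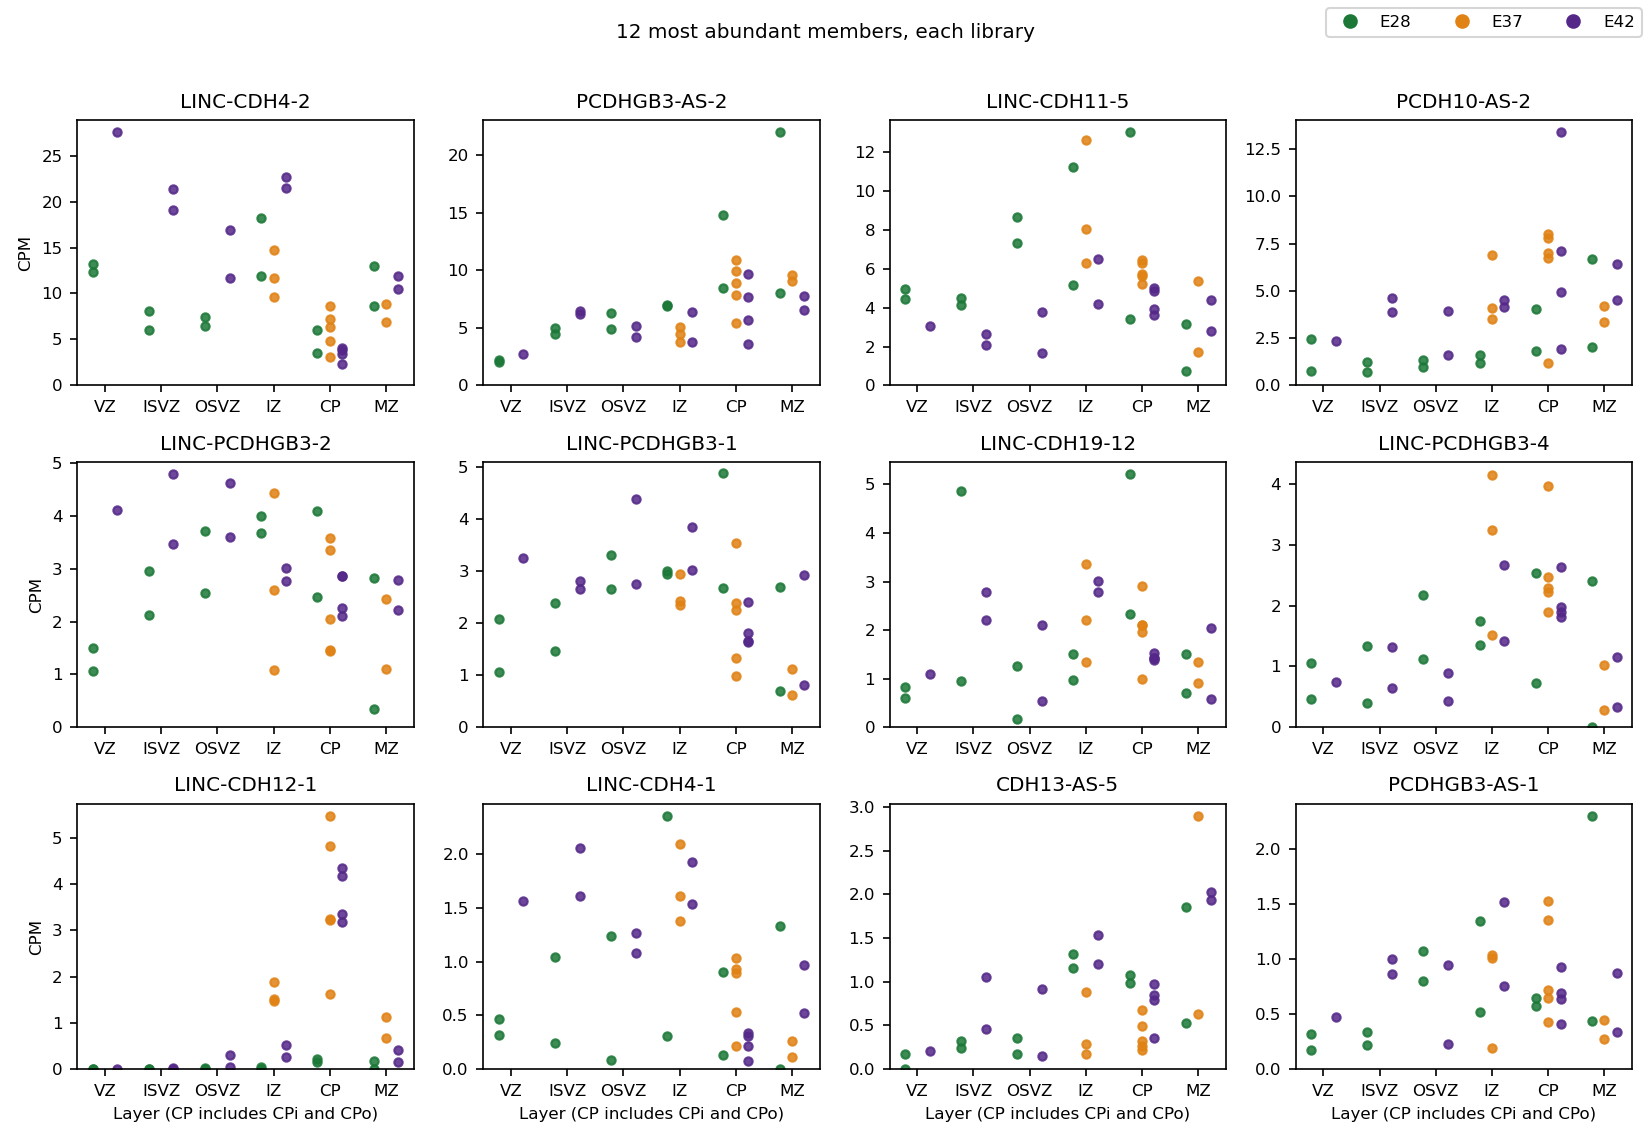
Each panel plots 1 of the 12 most abundant members, with CPM on the vertical axis and the layers on the horizontal axis. Each point is 1 library, coloured by stage, with CPi and CPo under CP, and LINC-CDH4-2 lies lowest in the CP (2.29 to 8.61 CPM) and LINC-CDH12-1 highest there (0.164 to 5.47 CPM).

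Germinal layers were first set against neuron-rich layers at E28 and at E42. At E28, 3 members were higher in the germinal layers and 7 lower, 4.84% and 11.3% of the 62, beside 18.5% and 17.1% of all 26858 features tested. At E42, 3 were higher and 6 lower (4.84% and 9.68%), beside 15.6% and 14.4% of all features. In this fit each share is below the background of all features. Among the 10836 noncoding features tested, 6.35% were higher and 10.3% lower at E28, and 7.31% and 4.73% at E42. The test compares means of group logarithms, and where a group without any count stands on each side it cannot determine the difference and makes no call. At E28 this held for 26 of the 62 members (41.9%) and for 13.9% of all features, and at E42 for 17 members (27.4%) and 8.38% of all features. With only the libraries compared in the fit, 18 members passed at E42 (6 higher, 12 lower). The filter was run again for that fit, so the members it tested need not be the 62. Over the 62, limma called 14 (4 and 10). Shares of all features were not counted for these 2 fits. Over the members that could be determined (36 and 45) the median log2 fold change was −0.74 at E28 and −0.21 at E42, with all determined features at −0.02 and 0.10, and members without counts on one side set to their bound (3 counts over that side) left both medians as they were. Of 36 members determined at both stages, 22 had one sign at both, and 5 passed at both stages with one sign: LINC-CDH4-17, LINC-CDH12-1, LINC-CDH5-2, CDH7-AS-4 and CDH22-AS-2.

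LINC-CDH4-2 did not pass at E28, with 6.03 to 13.2 CPM (median 7.78) in the germinal layers and 3.57 to 18.2 (median 10.3) in the neuron-rich ones and a log2 fold change of −0.11 (SE 0.19, adjusted p = 0.8). At E42 it was at 11.6 to 27.6 CPM (median 19.1, n = 5) in the germinal layers and 2.29 to 22.6 (median 7.28, n = 8) in the neuron-rich layers, and the log2 fold change was 1.08 (SE 0.20, adjusted p = 5.9e-05). The ranges overlapped, with both IZ libraries and 1 MZ library of E42 (11.9 CPM) inside the germinal range. LINC-CDH4-17, CDH4-AS-2 and LINC-FAT1-1, the 3 higher in the germinal layers of E28, averaged below 0.2 CPM over all libraries, and they, like LINC-CDH4-4, LINC-CDH4-6, LINC-CDH4-7, LINC-CDH4-21, LINC-PCDH11X-1, CELSR1-AS-4, PCDH18-AS-1, CDH10-AS-1 and PCDHGC5-AS-2 below, were chosen for description after their values were seen. LINC-CDH4-17 had 49 counts in the germinal and 5 in the neuron-rich libraries of E28 (adjusted p = 0.011), and 78 and 38 at E42 (log2 fold change 2.98, SE 0.94, adjusted p = 0.017). By group mean its IZ at E42 (0.251 CPM) was near the ISVZ (0.290), with the MZ at 0.0670 and the CPo at 0.00887. The CPi of E42 had 0 counts, and the size of the E42 value depends on that group. At E28 its IZ (0.0806 CPM) was above the OSVZ (0.0688), and the CP and MZ had 0 counts. Without the first OSVZ library of E28 a group without counts stood on each side and no call could be made, and the E42 call was lost without the second IZ (adjusted p = 0.054) or the second MZ library (0.052) of E42. CDH4-AS-2 had 53 and 24 counts at E28 (log2 fold change 3.03, SE 1.17, adjusted p = 0.043), a call lost in 12 of 20 alternatives, down to 1.01. Of its neuron-rich counts, 23 lay in the IZ, 1 in the CP and 0 in the MZ. By group mean the IZ (0.381 CPM) was above the ISVZ (0.340), VZ (0.326) and OSVZ (0.138) of E28, so the difference lay against the CP and MZ only.

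Of 15 tested members with type II cadherin names, 4 were lower in the germinal layers at E28 and 5 at E42, beside the 17.1% and 14.4% of all features given above, and the family was not tested against others. LINC-CDH12-1 is named after CDH12, a type II cadherin of brain. At E28 it had 1 count in the 6 germinal libraries and 17 in the 6 neuron-rich libraries, a ratio of 19.5 in favour of the neuron-rich layers (exact 95% interval 3.06 to 816, counting error only, adjusted p of the fit 0.022). That call was lost without the second IZ or the second MZ library of E28, each of which leaves a group without counts (adjusted p = 1, log2 fold changes −2.66 and −2.00). At E42 the values were 0, 0, 0.0179, 0.0387 and 0.299 CPM in the germinal libraries and 0.145 to 4.35 (median 1.85, n = 8) in the neuron-rich ones, with a log2 fold change of −5.21 (SE 0.81, adjusted p = 1e-05). Only 1 germinal library, of the OSVZ, reached into the neuron-rich range.

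LINC-CDH5-2 carries the name of CDH5 (VE-cadherin), the cadherin of vessel endothelium. At E28 it was at 0 in all 4 subventricular libraries and at 0.0638 and 0.0247 CPM in the VZ, 3 counts in all, against 0.0645 and 0.311 in the IZ, 0.574 and 1.03 in the CP and 0.303 and 0.926 in the MZ, 94 counts in all. The groups did not overlap, and the ratio was 36.0 in favour of the neuron-rich layers (exact 95% interval 11.9 to 177.6, counting error only, adjusted p of the fit 3.9e-06). At E42 it was at 0.0592 to 0.288 CPM (n = 5) in the germinal and 0.438 to 0.828 (n = 8) in the neuron-rich layers without overlap, with a log2 fold change of −2.17 (SE 0.65, adjusted p = 0.011). Beside it, 11 noncoding features of 2 of 3 vessel gene names summed to 0 in every germinal library of E28 and to at most 0.0346 CPM in its neuron-rich libraries, and to at most 0.0296 and 0.0710 CPM at E42. The defining names among them, CLDN5 and KDR, had between 0 and 20 counts per feature over all libraries.

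CDH7-AS-4 and CDH22-AS-2 are named after type II cadherins of the nervous system. CDH7-AS-4 was at 0 to 0.144 CPM (n = 5) in the germinal and 0.168 to 0.631 (n = 8) in the neuron-rich layers of E42, which did not overlap (log2 fold change −4.02, SE 1.02, adjusted p = 0.0026). At E28 its log2 fold change was −2.24 (SE 0.80, adjusted p = 0.028), with overlap, and 8 of 20 alternatives lost it, the smallest value from the count model being −1.11 without the first MZ library of E28. CDH22-AS-2 stood at 0.0361 to 0.766 CPM in the germinal and 0.242 to 1.37 in the neuron-rich layers of E28 (log2 fold change −1.76, SE 0.60, adjusted p = 0.022), and at 0.0296 to 0.199 and 0.0515 to 1.31 at E42 (−2.61, SE 0.71, adjusted p = 0.0049). Both pairs of ranges overlapped, and the E28 call was lost in 5 of 20 alternatives. By group mean the VZ of E28 (0.531 CPM) was above its IZ (0.298). At E42 the CPo (0.14 CPM) was level with the ISVZ (0.14) and below the OSVZ (0.177), and the IZ (1.19) and MZ (0.801) were the high layers. CDH8-AS-1, after another type II cadherin, was at 0 to 0.573 CPM in the germinal and 0.355 to 1.57 in the neuron-rich layers of E42 (−2.35, SE 0.90, adjusted p = 0.049), and 11 of 21 alternatives lost the call, with −1.45 without the VZ library.

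CDH13-AS-5 carries the name of CDH13 (T-cadherin), which is anchored to the membrane by a lipid and lacks the intracellular part of classical cadherins. It was at 0 to 0.358 CPM (median 0.209) in the germinal and 0.529 to 1.85 (median 1.12) in the neuron-rich layers of E28, without overlap (log2 fold change −2.57, SE 0.58, adjusted p = 0.00063). PCDHGB3-AS-2 is named after a gene of the clustered gamma protocadherins, whose combined use gives neurons a surface identity. It was at 2.07 to 6.25 CPM (median 4.68) in the germinal and 6.87 to 22.1 (median 8.26) in the neuron-rich layers of E28, again without overlap (−1.48, SE 0.23, adjusted p = 3.3e-06). The VZ was its lowest layer (2.07 and 2.20 CPM) and the second MZ library its highest. LINC-PCDH1-4, named after the delta protocadherin PCDH1, was at 0.0289 to 0.371 CPM and 0.104 to 0.971 CPM (−2.22, SE 0.55, adjusted p = 0.0017), with overlap. With the replicate number as a block, PCDHGB3-AS-2 was also lower in the germinal layers at E42 (−0.54, adjusted p = 0.028, against −0.50 and 0.11 without it), as was CDH13-AS-5 (−1.47, adjusted p = 0.042, against −1.49 and 0.057). PCDH10-AS-2 passed with the block at both stages (−1.06, adjusted p = 0.017 and −0.95, adjusted p = 0.038, against 0.061 and 0.19 without it), and PCDHGB3-AS-1 at E28 (−1.21, adjusted p = 0.044, against 0.067).

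FAT1 is a giant cadherin of cell polarity and actin organisation, and CELSR1 a seven-pass cadherin of planar cell polarity. LINC-FAT1-1 was at 0.638 and 0.495 CPM in the VZ, 0.360 and 0.365 in the ISVZ and 0.440 and 0.174 in the OSVZ of E28, and at 0 in all 6 neuron-rich libraries of that stage. With 84 counts against 0, it was at least 24.4-fold higher in the germinal layers, taking 3 counts over the neuron-rich group as the floor (adjusted p of the fit 0.00046). CELSR1-AS-4 had 64 counts in the germinal and 9 in the neuron-rich libraries of E42, with 0.622 CPM in the VZ and 0.0387 and 0.796 in the OSVZ (log2 fold change 3.93, SE 1.08, adjusted p = 0.007), and did not pass without the second OSVZ library (2.82, adjusted p = 0.078). LINC-PCDH11X-1, after a delta protocadherin of the X chromosome, was at 0 in 4 of 5 germinal libraries of E42 and 0.0717 CPM in the fifth, against 0.105 to 0.284 in the neuron-rich ones (−4.47, SE 1.44, adjusted p = 0.02), without overlap.

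**Figure D2:**
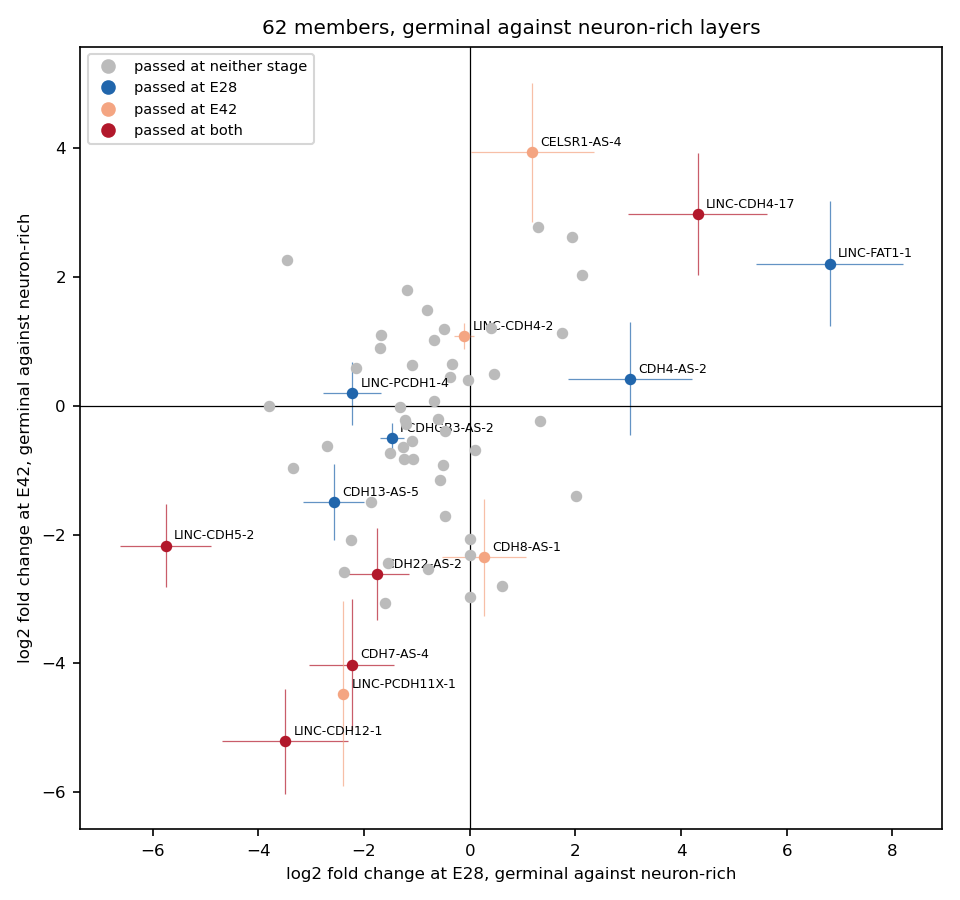
Each point is 1 of the 62 tested members, with its log2 fold change of germinal against neuron-rich layers at E28 (horizontal) and E42 (vertical). Bars are standard errors of members that passed at a stage, left out where a group without counts stood on each side, and the 5 members that passed at both stages lie in the lower left (4 members) or the upper right (LINC-CDH4-17).

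The IZ and the MZ, each a whole cut layer of mixed cells, were compared with the CP over E28, E37 and E42. In the IZ, 7 members were higher and 2 lower than in the CP (11.3% and 3.23%), beside 10% and 9.57% of all features, and in the MZ 6 were higher and 2 lower (9.68% and 3.23%), beside 15% and 14.3%. Among noncoding features, 3.59% and 1.19% passed in the IZ and 5.76% and 3.44% in the MZ. With the replicate number as a block, 3 were higher and 3 lower in the IZ (LINC-CDH12-13 gained at −3.43, adjusted p = 0.024), and 1 higher and 4 lower in the MZ. The median log2 fold change of the members that could be determined was 0.34 and 0.33, with or without bounds, and that of all determined features 0.07 and 0.03. Members that could not be determined numbered 19 and 25 of the 62. Of the 14 tested members named after CDH4, 6 of 14 were higher in the IZ and 4 of 14 in the MZ and none lower, while of the 48 named after other genes 1 and 2 were higher and 2 and 2 lower. Of the 14, 3 could not be determined in the IZ and 7 in the MZ, and the remaining 11 and 7 had a log2 fold change above 0, as had 18 of 32 and 14 of 30 determined members of other names. They share a name, and whether they are parts of a single transcript was not examined. With the block, 3 of them passed in the IZ and 1 in the MZ, and without the second CP library of E28 2 and 3. The count was also 2 in the IZ without the first IZ library of E28, and 2 in the MZ without its second MZ library.

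LINC-CDH4-2 was at 9.65 to 22.6 CPM (median 14.7, n = 7) in the IZ and 2.29 to 8.61 (median 4.10, n = 11) in the CP, and the groups did not overlap. Its log2 fold change was 1.80 (SE 0.17, adjusted p = 5e-09). In the MZ it was at 6.95 to 13.0 CPM (median 9.69, n = 6), 1.12 above the CP (SE 0.17, adjusted p = 8.4e-06), with overlap. LINC-CDH4-1 was at 0.311 to 2.35 CPM (median 1.61) in the IZ and 0.0772 to 1.03 (median 0.337) in the CP (1.92, SE 0.55, adjusted p = 0.013). It lost the call without the first IZ library (1.22) or the second CP library (1.64) of E28. LINC-CDH4-4 was at 0.195 to 0.474 CPM in the IZ and 0 to 0.180 in the CP, without overlap (2.52, SE 0.74, adjusted p = 0.014, and 0.055 without the second CP library of E28).

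The scarcer CDH4 members differed in how many counts the CP held, from 0 for LINC-CDH4-6 to 30 for CDH4-AS-2 and 36 for LINC-CDH4-36. LINC-CDH4-6 had no count in any of the 11 CP libraries, 14 counts in the IZ and 29 in the MZ, so it was at least 8.12-fold and at least 15.2-fold higher there (floor of 3 counts over the CP group, adjusted p of the fit 0.029 and 0.0039). LINC-CDH4-7 had 2 counts in the CP, 39 in the IZ and 65 in the MZ, ratios of 33.9 (exact 95% interval 8.78 to 289.9) and 51.1 (13.6 to 430.5), counting error only (adjusted p of the fit 0.0076 and 0.00047). The calls of LINC-CDH4-6 were lost in 8 and 4 of 25 alternatives and those of LINC-CDH4-7 in 2 of 26 and 1 of 25, the block among them each time. LINC-CDH4-17 had 33 counts in the IZ and 14 in the CP (adjusted p = 0.018), and LINC-CDH4-21 had 29 in the MZ and 9 in the CP (adjusted p = 0.029), and these calls were lost in 5 of 26 and 9 of 25 alternatives, with the block and limma (adjusted p = 0.067 and 0.17) among them. Summed without LINC-CDH4-2, the members named after CDH4 reached 1.07 to 4.36 CPM (median 3.29) in the IZ, 1.34 to 3.94 (median 2.19) in the MZ and 0.244 to 1.93 (median 0.747) in the CP. The germinal layers held 1.72 to 3.70 CPM of them (VZ), 0.761 to 5.25 (ISVZ) and 0.405 to 3.53 (OSVZ).

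**Figure D3:**
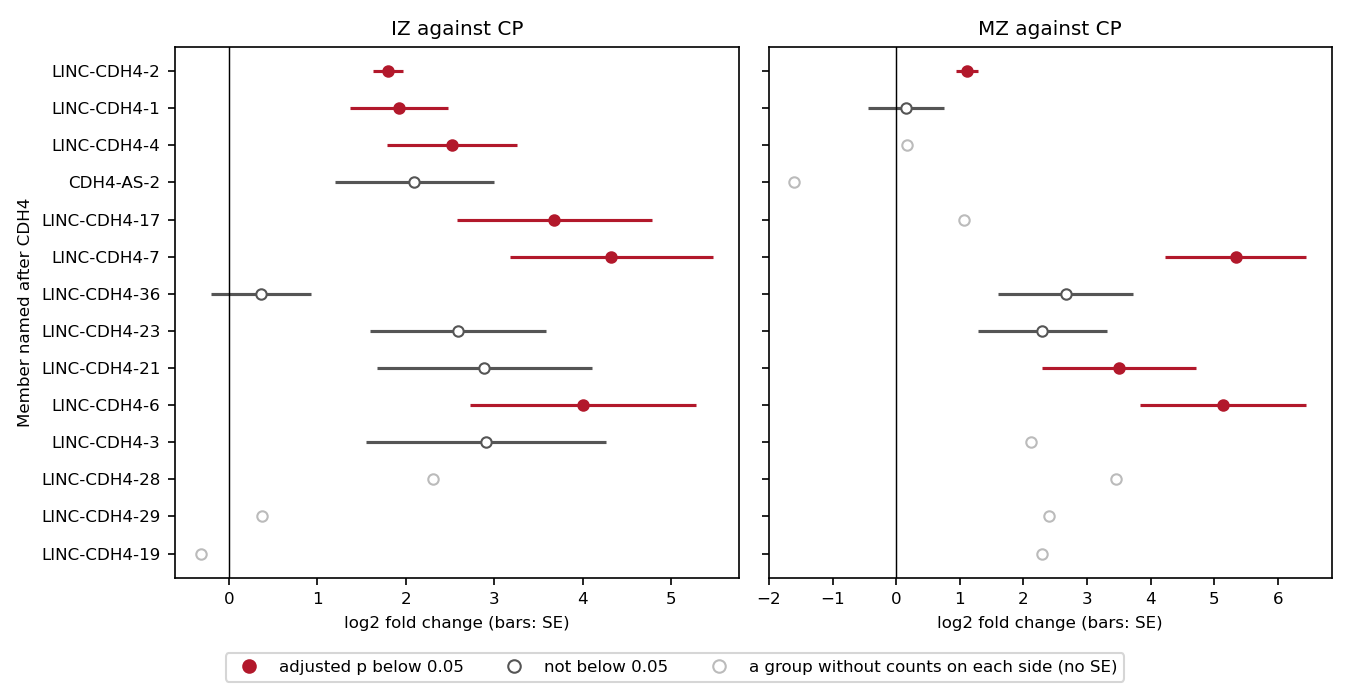
The 14 tested members named after CDH4 are listed by abundance, with the log2 fold change of the IZ (left) and MZ (right) against the CP on the horizontal axis and standard errors as bars. Filled red points passed the test, 6 on the left and 4 on the right, and pale points without bars had a group without counts on each side.

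For LINC-CDH12-1 the CP was the high layer. In the CP it was at 0.164 and 0.216 CPM at E28, 4.83 in the CP, 1.62 and 3.24 in the CPi and 3.23 and 5.47 in the CPo of E37, and 3.36 and 4.17 in the CPi and 3.19 and 4.35 in the CPo of E42. The IZ held 0 and 0.0345 CPM at E28, 1.51, 1.89 and 1.47 at E37 and 0.512 and 0.251 at E42, and the MZ 0 and 0.176, 0.667 and 1.13, and 0.411 and 0.145. Within each of E37 and E42, the CP libraries were the highest apart from 1 CPi library of E37, which lay within the IZ range. Its log2 fold change was −2.55 in the IZ (SE 0.52, adjusted p = 0.00064) and −2.28 in the MZ (SE 0.49, adjusted p = 0.00057). LINC-CDH11-5, after a type II cadherin first known from bone-forming cells, was at 0.750 to 5.39 CPM (median 2.98) in the MZ and 3.41 to 13.0 (median 5.20) in the CP (−1.01, SE 0.31, adjusted p = 0.014), a call lost in 4 of 25 alternatives, with −0.59 (adjusted p = 0.16) without the first CP library of E28.

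Among the protocadherin names, PCDHGB3-AS-2 was at 3.74 to 7.01 CPM (median 5.07) in the IZ and 3.64 to 14.8 (median 8.49) in the CP (−0.67, SE 0.20, adjusted p = 0.014), and lost the call without the second CP library of E28 (−0.51) or the second IZ library of E42 (−0.56). PCDH18-AS-1, after a delta protocadherin, had 36 counts in the CP, 56 in the IZ and 140 in the MZ (log2 fold changes 3.65, SE 1.06, adjusted p = 0.014 and 4.12, SE 1.06, adjusted p = 0.0035), with overlap. The size of both values depends on groups with 0 counts, the CP of E28 and the CPi and CPo of E37. The IZ mean was 0.626 CPM at E28, but at E42 it was 0.0895, below the CPi (0.191) and CPo (0.128). The block ended both calls (3.62 and 3.71), the MZ call was lost without MZ replicate 3 of E37 (2.37), and the IZ call without the second CP library of E28 (adjusted p = 0.057) or the second IZ library of E42 (adjusted p = 0.056). CDH13-AS-5 was at 0.529 to 2.89 CPM (median 1.89) in the MZ and 0.216 to 1.08 (median 0.679) in the CP (1.26, SE 0.47, adjusted p = 0.04). That call was lost in 12 of 25 alternatives, with the block at adjusted p = 0.056, and its value fell to 0.82 without the first MZ library of E28 and to 0.78 without the second of E37.

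Neighbouring layers of one kind gave the fewest calls. Between the OSVZ and the ISVZ no member passed in edgeR, beside 2.64% of all features higher and 2.68% lower, and between CPo and CPi none, beside 0.238% and 0.737%. Among noncoding features the shares were 0.332% and 0.415% for the OSVZ and 0.0461% and 0.0738% for the CPo. At an unadjusted p under 0.05 there were 4 and 2 members, DESeq2 and limma called 0 in each, and the block called 1 in each. In these comparisons 16 and 22 of the 62 could not be determined, and over the others the median log2 fold change was −0.26 and −0.23, with all determined features at −0.05 and 0.01. For LINC-CDH19-12, named after a type II cadherin of glia and nerve, the ISVZ held 4.87 and 0.944 CPM at E28 and 2.21 and 2.78 at E42, and the OSVZ 1.27 and 0.174 at E28 and 0.541 and 2.12 at E42. In each numbered pair the OSVZ was lower (log2 fold change −1.44, SE 0.55, adjusted p = 0.14, 0.032 with the block and 0.025 without the first OSVZ library of E28). For LINC-CDH4-3 the ISVZ held 32 counts and the OSVZ 0 (adjusted p = 0.15). PCDHGB3-AS-2 was at 9.96 and 10.9 CPM in the CPo of E37 and 9.69 and 7.67 in that of E42, and at 5.47 and 7.85 and 5.65 and 3.64 in the CPi (0.78, SE 0.27, adjusted p = 0.27, and 0.79 and 0.05 with the block). In each numbered pair the CPo was higher. CDH2-AS-1, named after N-cadherin, the main cadherin of radial glial junctions, had 11 counts in the CPo and 0 in the CPi (adjusted p = 0.61).

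Stages were compared from E28 to E42, within the ISVZ and OSVZ and within the IZ, CP and MZ. In the subventricular zones 6 members rose and 1 fell (9.68% and 1.61%), beside 12.5% and 9.64% of all features, and in the neuron-rich layers 2 rose and 1 fell (3.23% and 1.61%), beside 17.1% and 10.2%. Among noncoding features, 6.82% rose and 1.29% fell in the subventricular zones, and 7.07% and 4.18% in the neuron-rich layers. For the neuron-rich layers DESeq2 called 5 (4 and 1) and limma 11 (8 and 3). Undetermined members numbered 16 and 23 of the 62, and over the others the median log2 fold change was 1.25 and 0.27, with or without bounds, with all determined features at 0.25 and 0.12. The change differed between both kinds of layer for 2 members, both rising more in the subventricular zones, beside 4.12% of all features in that direction and 6.27% in the other, and 28 of the 62 members could not be determined. Among noncoding features these shares were 2.09% and 0.775%.

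LINC-CDH4-2 rose in the subventricular zones from between 6.03 and 8.08 CPM at E28 to between 11.6 and 21.3 at E42, without overlap (log2 fold change 1.28, SE 0.24, adjusted p = 2e-04). In the neuron-rich layers its log2 fold change was 0.03 (SE 0.19, adjusted p = 1), a mean over layers whose group means went from 15.0 to 22.0 CPM in the IZ, from 10.8 to 11.2 in the MZ and from 4.82 in the CP to 3.19 in the CPi and 3.62 in the CPo, which were not tested singly. The difference between both changes was 1.24 (SE 0.30, adjusted p = 0.0061). The features named after interneuron genes (11 features, 4 of 6 symbols) summed to 0.191 to 7.86 CPM in the germinal layers of E28 and 3.44 to 32.0 at E42, and those after oligodendrocyte lineage genes (6 features, 4 of 4 symbols) to 0.351 to 0.944 and 1.54 to 20.5. Their part in the result was not tested. In the IZ, CP and MZ the interneuron list was at 1.48 to 14.3 and 1.57 to 12.0 CPM and the oligodendrocyte list at 0.0820 to 0.806 and 0.408 to 13.4.

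LINC-CDH5-2 had no count in the 4 subventricular libraries of E28 and 31 counts at E42, with 0.288 and 0.125 CPM for the ISVZ and 0.155 and 0.199 for the OSVZ, at least 8.30-fold higher (floor of 3 counts over the E28 group, adjusted p of the fit 0.00079). Its change in the neuron-rich layers was 0.40 (SE 0.51, adjusted p = 0.65), and the difference had an adjusted p of 0.0084, but 0.14 in limma. PCDHGC5-AS-2, named after a clustered gamma protocadherin, also had 0 counts at E28 and 31 at E42, at least 8.30-fold higher (adjusted p of the fit 0.025), a call lost in 7 of 16 alternatives. CDH10-AS-1, after a type II cadherin, had 1 and 48 counts, a ratio of 38.6 (exact 95% interval 6.60 to 1555, adjusted p of the fit 0.026), lost in 4 of 16. LINC-PCDH1-4 rose from 0.252, 0.0609, 0.0550 and 0.0289 CPM to 0.623, 0.609, 0.619 and 0.448 CPM, without overlap (2.76, SE 0.69, adjusted p = 0.004).

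PCDH10-AS-2 carries the name of PCDH10, a delta protocadherin of axon growth. It was at 0.721 and 1.25 CPM (ISVZ) and up to 1.33 (OSVZ) at E28 and at 4.63 and 3.87 (ISVZ) and 3.94 and 1.62 (OSVZ) at E42, which did not overlap (1.67, SE 0.55, adjusted p = 0.029), and 6 of 16 alternatives lost the call. LINC-CDH11-5 fell from between 4.14 and 8.67 CPM to between 1.66 and 3.76 CPM, also without overlap (−1.21, SE 0.42, adjusted p = 0.036), and 7 of 16 lost it. All of these left out 1 ISVZ or OSVZ library, with values of 1.29 to 1.90 for PCDH10-AS-2 and −1.30 to −0.98 for LINC-CDH11-5.

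In the neuron-rich layers, LINC-CDH12-1 rose from 0 to 0.216 CPM (median 0.0993, n = 6) at E28 to 0.145 to 4.35 (median 1.85, n = 8) at E42, with a log2 fold change of 3.48 (SE 0.59, adjusted p = 4e-05). LINC-CDH12-13 had 21 and 238 counts (3.10, SE 1.16, adjusted p = 0.048), and 11 of 22 alternatives lost that call. PCDHGB3-AS-2 fell from 6.87 to 22.1 CPM (median 8.26) to 3.64 to 9.69 (median 6.48), with a log2 fold change of −0.80 (SE 0.21, adjusted p = 0.0044), and without the second MZ library of E28 the value was −0.50 (adjusted p = 0.06). The 3 pairs of ranges overlapped. With the block, LINC-CDH4-4 passed as well (2.54, adjusted p = 0.041, against 0.057 without it). For stages that block joins libraries of the same number across different embryos, so it is no true pairing.

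**Figure D4:**
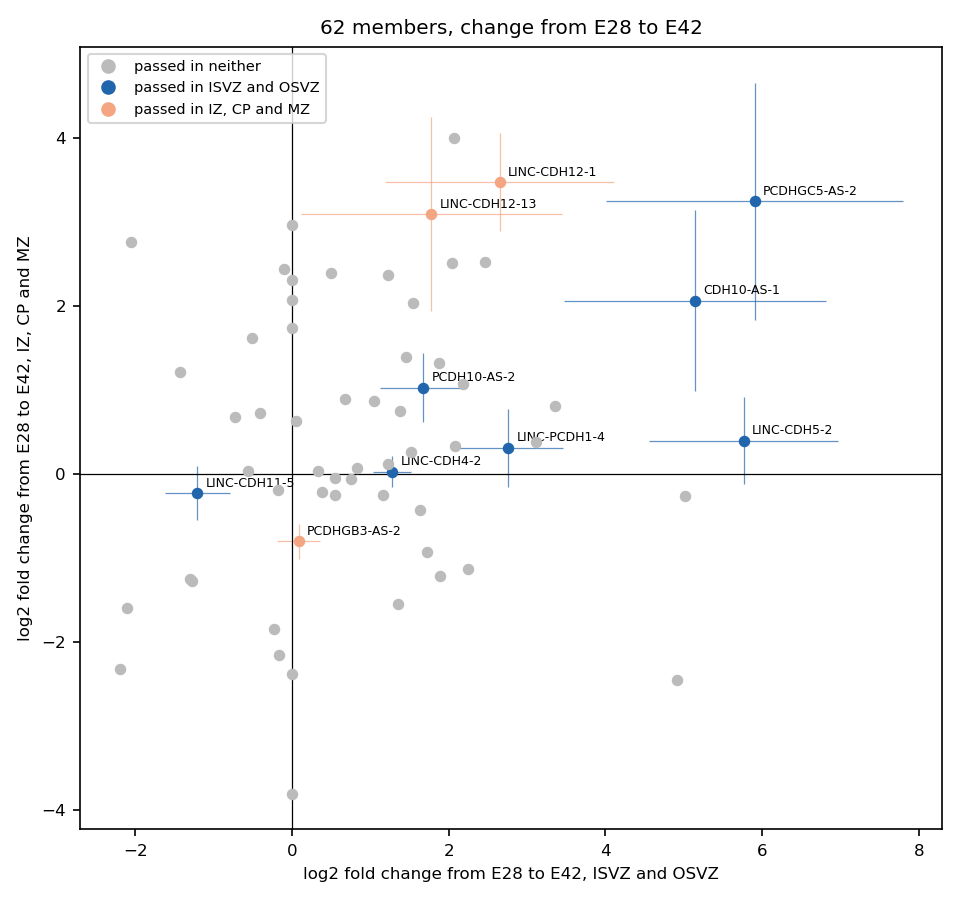
Each point is 1 of the 62 tested members, with its log2 fold change from E28 to E42 in the ISVZ and OSVZ (horizontal) and in the IZ, CP and MZ (vertical), and standard errors as bars for members that passed in either. LINC-CDH4-2 (1.28 and 0.03) and LINC-CDH5-2 lie to the right near the horizontal line, and LINC-CDH12-1 (3.48 on the vertical axis) near the top.

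The other 4 abundant members of the PCDHGB3 name passed in none of the 9 comparisons in the main fit. LINC-PCDHGB3-2 was at 1.06 to 4.12 CPM in the VZ and 0.353 to 2.82 in the MZ, and PCDHGB3-AS-1 at 0.173 to 0.474 and 0.278 to 2.31. LINC-PCDHGB3-1 was at 0.987 to 4.88 CPM in the CP and 0.629 to 2.93 in the MZ, and LINC-PCDHGB3-4 at 0.730 to 3.96 and 0 to 2.40, so all of these ranges overlapped. With the block, LINC-PCDHGB3-1 and LINC-PCDHGB3-4 were lower in the MZ than in the CP (−0.81, adjusted p = 0.035 and −1.48, adjusted p = 0.0079). In limma, without a block, both were also lower there (−0.91, adjusted p = 0.028 and −1.87, adjusted p = 0.012). All 8 members of this name summed to 5.32 to 12.0 CPM in the VZ and between 9.65 and 24.7 in the other layers. Their reads may be shared among near-identical genes of the cluster, and for every antisense member sense and antisense reads cannot be told apart, since the strand setting of the counting is not given in the sources used here.

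**Figure D5:**
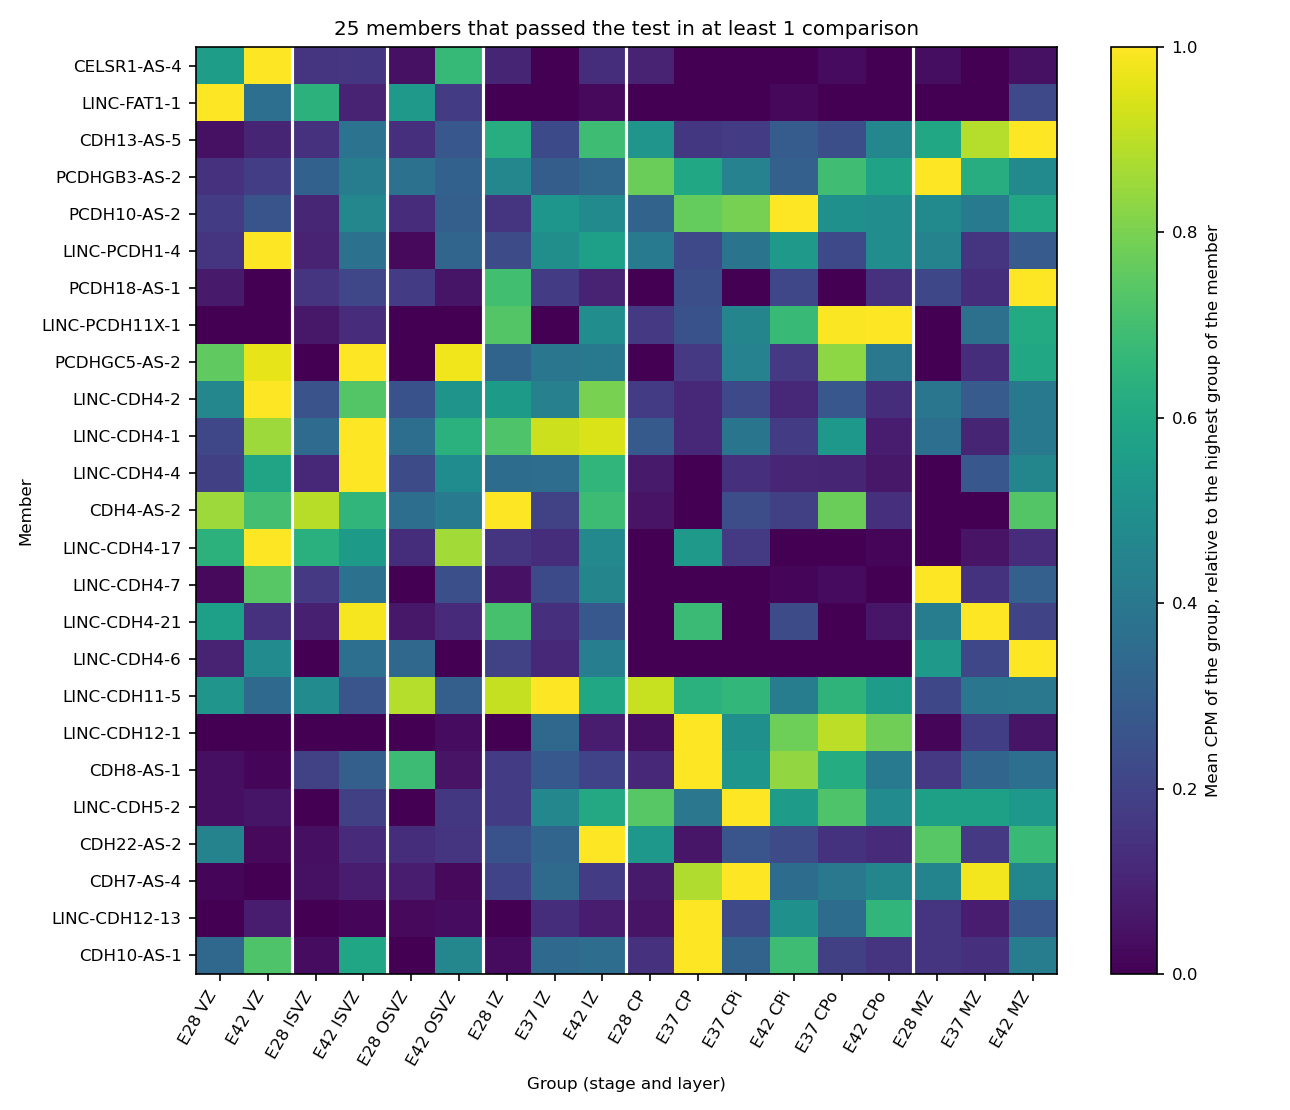
Rows are the 25 members that passed in at least 1 of 9 comparisons, ordered by cadherin family, and columns the 18 groups of stage and layer, with white lines between layers. Colour is the mean CPM of a group divided by that of the highest group of the member, with LINC-CDH12-1 brightest in the CP columns of E37 and E42 and LINC-CDH4-2 dark there.

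Of the 62 tested members, 25 passed in at least 1 comparison and 37 in none. How many of all features passed in at least 1 comparison was not counted, so this number has no background to stand beside. The germinal comparison of E28 alone called 18.5% of all features higher and 17.1% lower. Noncoding features named after partners and kin of cadherins (catenins, desmosomal cadherins, calsyntenins, Frizzled and planar polarity genes) numbered 139 under 32 of 40 symbols, and 20 were tested. Of these, 0 were higher and 3 lower in germinal against neuron-rich layers at E28, 1 and 1 at E42, 1 and 0 in the IZ and 0 and 1 in the MZ against the CP, 0 and 1 in the OSVZ against the ISVZ, 0 and 0 in the CPo against the CPi, 2 and 0 with stage in the subventricular zones 1 and 2 in the neuron-rich layers and 1 and 0 for the difference of both changes. Shares of all features for each comparison are given above, and the 20 partners were not tested as a set. CTNNB1-AS-2, named after beta-catenin, the link between classical cadherins and the cytoskeleton, was lower in the germinal layers at E28 (−1.62, SE 0.36, adjusted p = 0.00051) and rose in the subventricular zones (1.88, SE 0.43, adjusted p = 0.0017). LINC-CTNND2-4, named after delta-catenin, was likewise lower at E28 (−2.13, SE 0.42, adjusted p = 0.00014) and rose with stage (1.75, SE 0.50, adjusted p = 0.011). FZD3-AS-1, the most abundant partner called (mean 66.9 CPM), differed from both. It was higher in the germinal layers at E42 (1.34, SE 0.26, adjusted p = 0.00041) and fell with stage in the neuron-rich layers (−0.81, SE 0.25, adjusted p = 0.017).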

How the data were processed

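After adapter trimming the authors aligned reads with HISAT to the tree shrew genome (annotation TS_3.0) and ran HTSeq-count per annotated feature. The deposited counts are whole numbers and were used here without change. The lines of the counter for unassigned reads were left out. The members, the named lists and the comparisons were chosen with earlier results of these data known. In R 4.3.3 with edgeR 4.0.16, features were filtered with filterByExpr by group (minimum count 10), scaled by TMM and fitted with 1 mean for each of 18 groups (35 libraries, 17 residual degrees of freedom, biological coefficient of variation 0.378). The 9 contrasts used the robust quasi-likelihood test, with Benjamini-Hochberg adjustment over 26858 features and a threshold of 0.05, no fold threshold. Each SE is the log2 fold change divided by the root of F. CPM used TMM-scaled library sizes. Each contrast averages groups with equal weight. The CP at E42 is the mean of CPi and CPo, and that of E37 the mean of CP, CPi and CPo by number of libraries. Exact intervals and floors cover counting error only.

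Members were named as follows: LINC-CDH4-2, the 12 with the highest mean CPM, the 4 called with the largest change in each direction of each comparison with a mean of at least 0.2 CPM, and the 2 with the smallest p where none was called. Noncoding features of marker names and of cadherin partners were summed or counted. For microglia and choroid plexus names the sums were at most 0.314 and 0.542 CPM. The alternatives were DESeq2 1.42.0 (Wald test, and its size factors in edgeR), no filter, only the libraries compared, the replicate number as a block, the repeated VZ file kept, an absolute log2 fold change above 1 as well, and each library left out in turn with the dispersion trend of the full fit. For comparisons within stages the block was fitted within each stage. For comparisons between stages it was 1 effect per number shared over the stages, although these are different embryos. limma 3.58.1 (trend, log2 CPM with prior count 2) was added after seeing the data. The deviations of same-numbered libraries from their group means correlated above 0.1 in all 15 layer pairs of E28 (0.167 to 0.265). The same held for 6 of 6 pairs at E37 (0.129 to 0.272) and 10 of 15 at E42 (−0.117 to 0.232). Libraries of E28 and E37 thus varied together by number. At E42 the same held for layer pairs without the OSVZ (0.13 to 0.232), while pairs with it lay at −0.117 to 0.062. The VZ of E42, with 1 library, entered no pair. The main fit held no term for this, so its p values and counts of calls ignore it. Only the block alternative took it up. The pipeline was tested on simulated data. No sequences are shown, since no reference sequence was used. Plots were drawn in Python with matplotlib 3.10.9.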

Additional observations from a re-analysis of the deposited data

Results flagged for a closer look

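The change from E28 to E42 in the ISVZ and OSVZ differed from that in the IZ, CP and MZ for 2 members, by a test of the difference itself. For LINC-CDH4-2 the difference was 1.24 on the log2 scale (SE 0.30, adjusted p = 0.0061, edgeR), and it lay between 1.06 and 1.37 under 30 alternatives, all of which passed. For LINC-CDH5-2 the fitted difference was 5.36 (SE 1.34, adjusted p = 0.0084), a value that depends on the prior count because the subventricular libraries of E28 held 0 counts, and it was 1.64 (adjusted p = 0.14) in limma, the 1 of 30 alternatives that did not pass.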

How the results depend on the processing

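Alternatives were followed for the 48 calls of members and for the 2 members named in each comparison without a call. None of these log2 fold changes turned its sign in any alternative. Fold changes of named members in other comparisons, where they did not pass, were not followed for sign. Of 48 calls of single members, 20 passed under every alternative run, among them LINC-CDH4-2 in all 5 of its comparisons. Members called numbered 9 between germinal and neuron-rich layers at E42, 18 with only the libraries compared and 14 in limma. From E28 to E42 in the IZ, CP and MZ there were 3, but 5 in DESeq2, 5 with only the libraries compared and 11 in limma, and for the difference of the stage changes 2, but 4 in DESeq2 and 5 in limma. The replicate block gave 5 in the MZ against the CP (8 without it), 1 for the OSVZ against the ISVZ and 1 for the CPo against the CPi (0 without it). It also gained calls, those named above and others. Among these, LINC-CDH4-1 was higher in the germinal layers at E42 (1.19, adjusted p = 0.048) and PCDH9-AS-1 lower at E28 (−2.57, adjusted p = 0.033). It lost 10 calls of members, of which 8 had an adjusted p of 1, and it took the members higher in the IZ than in the CP from 7 to 3, with no other total per comparison moved by over 1.5 times. The cause was not tested. With 1 library left out, the calls were 7 to 12 (germinal, E28), 7 to 9 (germinal, E42), 0 to 1 (OSVZ against ISVZ), 3 to 10 (IZ against CP), 5 to 11 (MZ against CP), 0 to 0 (CPo against CPi), 3 to 7 (stage, ISVZ and OSVZ), 2 to 4 (stage, IZ, CP and MZ) and 2 to 5 (difference). Moves over 1.5 times came from leaving out the second CP (3 calls) or first IZ library (5) of E28 for the IZ, the first CP or second MZ library of E28 or MZ replicate 3 of E37 (5 each) for the MZ, and the first (5) or second MZ library (4) of E28 for the difference. For the stage change in the ISVZ and OSVZ they came from any of its E28 libraries or the first ISVZ or OSVZ library of E42 (3 to 4 calls), and for the OSVZ against the ISVZ from the first OSVZ library of E28 (1 call). limma, which gives a finite value to every group, called 72 times over the 9 comparisons, and 41 of these were among the 48 of edgeR. Most groups had 2 libraries and most tested members less than 1 CPM, which limits the precision of each value.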
